A study of Mus musculus with 9 samples.

Results

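A set of 10 cell-surface receptors for purines, adenosine, metabolites and lipid mediators was followed through LPS stimulation and LXR agonist treatment of bone-marrow-derived macrophages (BMDMs). The receptors were chosen by gene symbol from the RNA-seq count table, in which they are 10 of 24061 symbols, and the rows of one symbol were summed. They comprise 2 metabolite sensors (Gpr84 and Hcar2), 2 adenosine receptors (Adora2a and Adora2b), 2 ATP-gated P2X channels (P2rx4 and P2rx7), 2 nucleotide-sensing P2Y receptors (P2ry2 and P2ry6) and 2 receptors for lipid mediators (Ptafr and Ptger4).

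The cells were primary macrophages grown for 7 days from the bone marrow of C57BL/6J mice, which the study's methods give as females 8 to 10 weeks old, and treated on day 8 after one day without serum. The 3 groups of 3 libraries were Veh (vehicle), LPS (10 ng/mL for 2 hr, a bacterial agonist of TLR4) and T0+LPS, which received T0901317 (T0), an agonist of LXR, at 500 nM from 3 hr before the same LPS treatment. The labels give no further allele or agent, and no group received T0 alone, so T0 is compared only on top of LPS. The methods describe replicates as cultures differentiated separately, and the time at which Veh cells were collected is not given in the sources used here.

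Extracellular nucleotides are danger signals that leave stressed cells and act on P2X channels and on G-protein-coupled P2Y receptors. Ectoenzymes convert them to adenosine, whose receptors of the A2 class couple to Gs, raise cAMP and restrain macrophage cytokine production. GPR84 senses medium-chain fatty acids and HCAR2 senses β-hydroxybutyrate and niacin, so that both connect metabolite levels to macrophage behaviour. Platelet-activating factor and prostaglandin E2, the ligands of the Ptafr and Ptger4 products, are lipid mediators made by activated phagocytes.

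Each library held between 13299044 and 16467983 counted reads. Levels are given as CPM, the read count relative to the library's total after scaling by TMM factors, which were between 1.136 and 1.144 in Veh and between 0.931 and 0.948 in the other groups. A gene was called changed at an adjusted p under 0.05 in the quasi-likelihood test of edgeR, adjusted by Benjamini-Hochberg over all genes tested. The summed level of 10 macrophage markers (9 of them in the table, Itgam listed at 0) was between 24800 and 27000 CPM in Veh, 29400 and 31000 in LPS and 32100 and 33600 in T0+LPS. Most of this sum was Lyz2, with a mean of 21600 CPM over the 9 libraries. Of 8 macrophage markers tested with LPS, 3 were called higher and 3 lower. Over all 9559 genes tested, 32.9% were called higher and 31.2% lower. Neutrophil markers, 9 of 10 in the table with S100a9 and Retnlg at 0, summed to between 1.5 and 2.14 CPM in Veh, 3.32 and 4.00 in LPS and 2.37 and 3.65 in T0+LPS. The lists for T and NK cells, B cells, mast cells and basophils, and stromal cells held no gene at 5 CPM or more. A marker with several transcripts can read low or 0 whatever its level, since reads on their shared bases were not counted. Low values therefore do not show a cell type to be absent. As a check of the treatment, the LXR target Abcg1 was at 1620 ± 46.4 CPM (SD, n = 3) against 381 ± 11.4 in LPS and Abca1 was at 5110 ± 185 against 1840 ± 159. The inflammatory genes Ptgs2, Il1b and Cxcl1 were lower with T0, by log2 fold changes of -0.68, -0.48 and -0.25 (adjusted p = 4.4e-05, 0.0022 and 0.0031). The same genes rose with LPS by log2 fold changes of 9.23, 9.34 and 10.24.

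In this table reads on bases shared by several transcripts of a gene were not counted, so a receptor with 1 RefSeq row is measured on its whole transcript and a receptor with several rows only on the bases that are not shared. Of the 10 receptors, 8 had 1 row: Gpr84, Hcar2, Adora2a, Adora2b, P2rx4, P2ry2, P2ry6 and Ptafr. The 5 rows of P2rx7 left 578 unshared bases, which equals 11.7% of its longest transcript, and 71 reads over all 9 libraries. The 2 rows of Ptger4 left 63 unshared bases, on chromosome 15 from 5243620 to 5243682, and 14 reads, so Ptger4 was not tested. In mm10 coordinates, Gpr84 lies on chromosome 15 from 103308235 to 103310438 (minus strand) and Hcar2 on chromosome 5 from 123863570 to 123865516 (minus strand). Adora2a lies on chromosome 10 from 75316877 to 75334792 and Adora2b on chromosome 11 from 62248984 to 62266452, both on the plus strand. The P2X genes are neighbours on the plus strand of chromosome 5, P2rx7 from 122643911 to 122691432 and P2rx4 from 122707557 to 122729042, with a gap of 16.1 kb. The P2Y genes lie close together on the minus strand of chromosome 7, P2ry6 from 100937634 to 100964366 and P2ry2 from 100996572 to 101011991, with a gap of 32.2 kb that holds 1 other gene symbol. Ptafr lies on chromosome 4 from 132564067 to 132580866 (plus strand) and Ptger4 on chromosome 15 from 5233399 to 5244187 (minus strand). The transcripts of the G-protein-coupled receptors had between 1 exon (Hcar2) and 3 exons (Adora2a, P2ry2, P2ry6 and Ptger4), against 12 exons for P2rx4 and 13 for P2rx7.

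To set the receptors' start regions beside their responses, the 250 bases upstream of the RefSeq start (GRCm38.p6, the build of the count table) were searched for 6 motifs on both strands. These were NF-kB, AP-1 (TGANTCA), the cAMP response half-element (TGACG), the nuclear receptor half-site (AGGTCA), a repeat of that half-site spaced by 4 bases (DR4, the arrangement bound by LXR) and PU.1 (GAGGAAGT). A window was given for 7 of the 10 receptors, and the 5 printed here are those whose transcripts were measured in full, namely 3 receptors that rose strongly with LPS (Gpr84, Adora2b and P2ry2), 1 that rose and was then lower with T0 (Ptafr) and 1 that was not called (P2rx4). They are the windows at chr15:103310439-103310688 (minus strand) for Gpr84, chr11:62248734-62248983 (plus) for Adora2b, chr7:101011999-101012248 (minus) for P2ry2, chr4:132563817-132564066 (plus) for Ptafr and chr5:122707294-122707543 (plus) for P2rx4, written 5′ to 3′ along the gene with motif matches in capitals.
Gpr84: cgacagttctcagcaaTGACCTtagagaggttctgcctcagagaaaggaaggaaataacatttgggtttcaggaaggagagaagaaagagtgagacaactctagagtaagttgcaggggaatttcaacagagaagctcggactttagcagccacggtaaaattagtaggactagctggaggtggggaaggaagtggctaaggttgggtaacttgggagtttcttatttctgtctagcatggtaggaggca
Adora2b: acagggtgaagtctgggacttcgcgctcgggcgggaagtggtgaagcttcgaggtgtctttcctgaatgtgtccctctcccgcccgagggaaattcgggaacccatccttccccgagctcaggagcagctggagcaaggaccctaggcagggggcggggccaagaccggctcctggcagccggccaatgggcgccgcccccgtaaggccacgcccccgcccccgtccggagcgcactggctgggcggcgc
P2ry2: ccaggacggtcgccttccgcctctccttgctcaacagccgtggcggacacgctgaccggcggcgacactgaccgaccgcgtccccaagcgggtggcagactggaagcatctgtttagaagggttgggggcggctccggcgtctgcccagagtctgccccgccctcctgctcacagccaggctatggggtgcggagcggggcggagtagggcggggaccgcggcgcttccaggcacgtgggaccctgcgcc
Ptafr: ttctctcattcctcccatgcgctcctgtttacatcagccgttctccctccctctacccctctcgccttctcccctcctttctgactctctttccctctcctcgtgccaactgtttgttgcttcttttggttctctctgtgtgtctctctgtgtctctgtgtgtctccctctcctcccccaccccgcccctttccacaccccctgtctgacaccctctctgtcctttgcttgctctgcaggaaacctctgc
P2rx4: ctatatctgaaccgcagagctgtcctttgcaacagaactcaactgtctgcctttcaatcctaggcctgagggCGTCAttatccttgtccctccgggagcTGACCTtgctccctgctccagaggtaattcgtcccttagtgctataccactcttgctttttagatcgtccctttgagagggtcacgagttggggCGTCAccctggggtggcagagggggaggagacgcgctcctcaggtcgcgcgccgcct

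The windows differed in composition. P2ry2 and Adora2b had 26 and 22 CpG dinucleotides and a GC content of 71.2% and 69.6%, whereas Gpr84 had 3 CpG dinucleotides at 46.0% GC and Ptafr 5 at 56.0%, against medians of 6 and 52.4% over all 32851 mouse windows. The Gpr84 window held 1 match, the half-site AGGTCA on the minus strand at 234 to 229 bases upstream, a motif that 14% of all windows hold. The printed windows of Adora2b, P2ry2 and Ptafr held no match, which says nothing of sites farther from the start. No window was given for Hcar2, Adora2a and P2ry6. P2ry2 and P2rx7 each had 2 windows listed, and only 1 of each is described here. The window of P2rx4 held 3, namely TGACG on the minus strand at 178 to 174 and at 57 to 53 bases upstream and AGGTCA on the minus strand at 151 to 146. Among all windows, 17.8% held TGACG, 6.75% the AP-1 motif, 3.90% the NF-kB motif, 2.44% the PU.1 motif and 0.0152% the DR4 repeat, and 38.7% held a match to at least 1 of the 6. The P2rx7 window held the AP-1 motif at 249 to 243 bases upstream, 1 site that reads as a match on both strands, and the Ptger4 window held none.

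LPS changed most of these receptors, and the size and direction of the change differed between members of the same family. Gpr84, Adora2a, Hcar2, Adora2b, P2ry2 and Ptafr rose, P2ry6 and P2rx7 fell, and P2rx4 was not called. Of the 9 receptors tested, Gpr84 passed the filter on low counts only through the LPS libraries and P2rx7 only through the Veh libraries. These 2 had to differ and are left out of the counts that follow. Adora2a, kept in those counts, had 5 of 6 libraries past the minimum and would not have passed through Veh alone, which favoured its rise. Of the other 7, 5 rose and 1 fell, where 32.9% of the 9559 genes tested were called higher and 31.2% were called lower (1694 higher and 5411 lower with scaling by library totals, which called P2rx4 lower as well). The 3 LPS libraries lay above the 3 Veh libraries for 5 of the 7 and below them for 1, and over all genes tested the groups separated upward in 33.7% and downward in 33.7%. The median log2 fold change was 2.20 over the 7 receptors and -0.002 over all genes tested. In these bulk samples, a change in the number of cells that express a receptor and a change in its RNA per cell cannot be told apart.

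**Figure D1:**
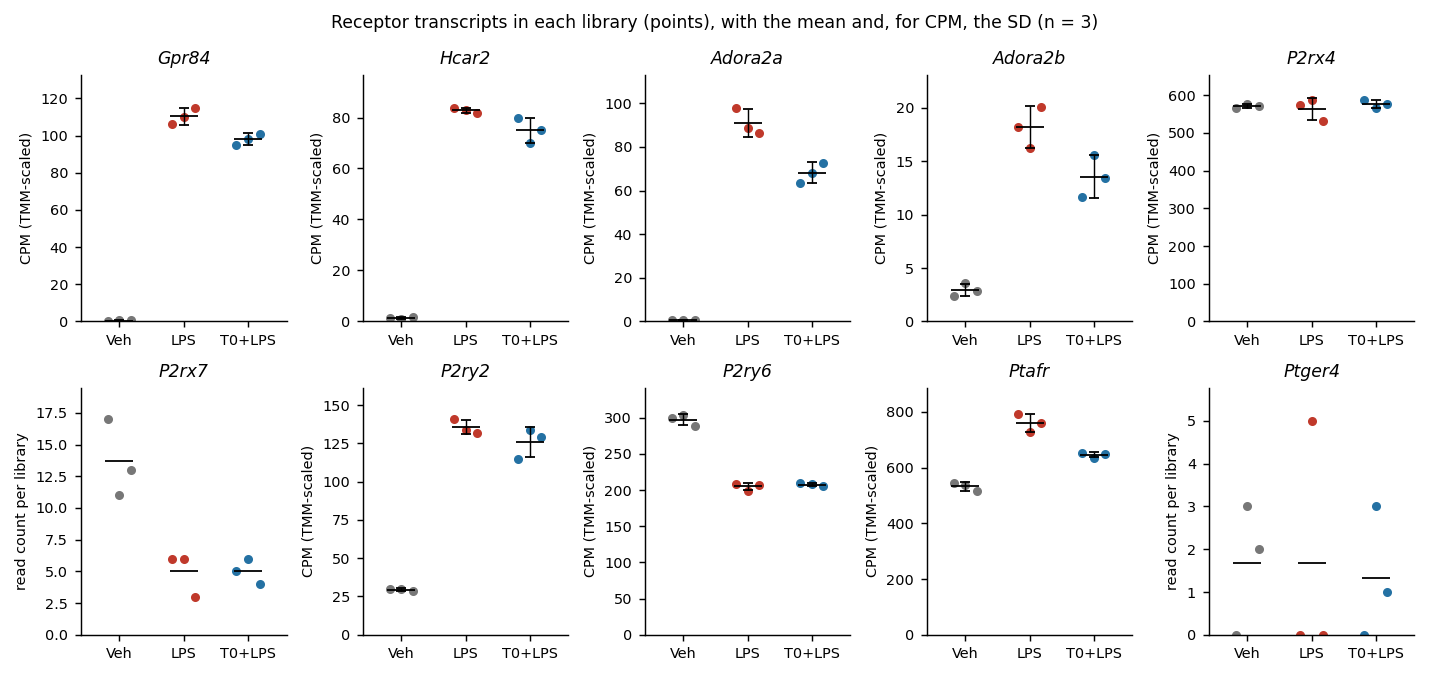
Levels of the 10 receptors in each of the 9 libraries (points) with the group mean (line); the y axes give TMM-scaled CPM with the SD as error bar, or, for P2rx7 and Ptger4, the read count per library without an error bar. Gpr84, Hcar2 and Adora2a lay at 1.80 CPM or less in every Veh library, and P2rx4 lay between 531 and 586 CPM throughout.

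The metabolite sensors were nearly silent without LPS. Gpr84 was at 0.321, 0.595 and 0.521 CPM in the Veh libraries, 106, 110 and 115 CPM in the LPS libraries and 94.8, 98.2 and 101 CPM in the T0+LPS libraries. The groups did not overlap, and the 24 reads in all 3 Veh libraries became 4345 in the LPS libraries. The log2 fold change of LPS against Veh was 7.86 (SE 0.11, adjusted p = 3.1e-18), a 232-fold rise (95% interval 196 to 273). Only 0.282% of the genes tested had a larger rise. Gpr84 passed the filter on low counts only through the LPS libraries, which fixed the direction of its call in advance. The p-value and rank are therefore no independent support, and the size of the rise rests on the 24 Veh reads.

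Hcar2 was at 1.23, 0.926 and 1.80 CPM in Veh, 83.9, 82.8 and 81.8 CPM in LPS and 79.7, 70.1 and 75.1 CPM in T0+LPS. The LPS libraries lay close together, with a mean of 82.8 ± 1.01 CPM (SD, n = 3), far above every Veh library. The rise with LPS was 62.0-fold (log2 fold change 5.95, SE 0.11, adjusted p = 5.3e-17).

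Both adenosine receptors rose with LPS, Adora2a far more than Adora2b. Adora2a was at 0.535, 0.727 and 0.637 CPM in Veh, 98.0, 88.5 and 86.3 CPM in LPS and 63.3, 68.2 and 72.8 CPM in T0+LPS. The groups were fully separate, with Veh lowest and LPS highest. LPS raised Adora2a 143-fold (log2 fold change 7.16, SE 0.12, adjusted p = 1.5e-17). Adora2b, the receptor of lower adenosine affinity, was at 2.41, 3.57 and 2.84 CPM in Veh, 18.2, 16.2 and 20.1 CPM in LPS and 11.6, 15.6 and 13.4 CPM in T0+LPS. Its LPS libraries lay above its Veh libraries, and the rise was 6.25-fold (log2 fold change 2.64, SE 0.14, adjusted p = 6.3e-11).

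The balance of the 2 adenosine receptors therefore turned over. Counted per base of transcript in the same library, a ratio that no library scaling affects, Adora2a stood at 0.157, 0.144 and 0.159 of the Adora2b level in Veh and at 3.81, 3.86 and 3.05 times it in LPS. The ratio was below 1 in every Veh library and above 3 in every LPS library. An exact permutation test of 3 against 3 gave p = 0.1 (2-sided), which is the lowest value possible with these group sizes, and 0.16 after adjustment over the 8 such tests run here.

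The P2X channels are ligand-gated cation channels that open on binding ATP. P2rx4 was at 567, 576 and 572 CPM in Veh, 573, 586 and 531 CPM in LPS and 586, 565 and 576 CPM in T0+LPS. All 3 groups overlapped. Its log2 fold change with LPS was -0.02 (95% interval -0.11 to 0.07, adjusted p = 0.72), which at this depth bounds any change to between 0.926-fold and 1.05-fold under TMM scaling. With scaling by library totals, which moves the median of all genes to -0.28, P2rx4 was at -0.30 and was called lower (adjusted p = 8e-06), so its change relative to the median gene was small under both scalings.

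P2rx7, the channel that drives inflammasome activation at high ATP, had 17, 11 and 13 reads in Veh, 6, 6 and 3 in LPS and 5, 6 and 4 in T0+LPS. These are 41 reads in Veh (95% Poisson interval 29.4 to 55.6) and 15 in each of the other groups (8.40 to 24.7), intervals that cover counting error only. Its call, which passing the filter through Veh alone had already favoured (log2 fold change -1.05, SE 0.39, adjusted p = 0.026), was lost with DESeq2, without Veh replicate 1 and without LPS replicate 3. Over the alternatives its adjusted p ran from 0.0053 to 0.18.

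The P2Y receptors moved apart. P2ry2, which binds ATP and UTP, was at 30.0, 29.9 and 28.5 CPM in Veh, 141, 134 and 132 CPM in LPS and 115, 134 and 129 CPM in T0+LPS. It rose 4.61-fold with LPS (log2 fold change 2.20, SE 0.05, adjusted p = 1.3e-15), with every LPS library above every Veh library. P2ry6, the receptor for UDP, was at 299, 304 and 289 CPM in Veh, 209, 199 and 207 CPM in LPS and 210, 208 and 205 CPM in T0+LPS. P2ry6 fell by 30.9% with LPS (log2 fold change -0.53, SE 0.04, adjusted p = 1.2e-08), and the groups did not overlap. With scaling by library totals, its log2 fold change was -0.82 (adjusted p = 1e-10). Per base in the same library, P2ry2 stood at 0.0634 ± 0.000616 of P2ry6 in Veh (SD, n = 3) and at 0.423 ± 0.0119 in LPS (exact permutation p = 0.1, adjusted 0.16). The receptor for UDP remained the more abundant of the pair in every library.

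Ptafr, the receptor for platelet-activating factor, was already high without LPS. It was at 546, 537 and 516 CPM in Veh, 792, 729 and 759 CPM in LPS and 653, 636 and 649 CPM in T0+LPS. The groups were fully separate, with T0+LPS in between. The rise with LPS was 1.43-fold (log2 fold change 0.52, SE 0.04, adjusted p = 2.4e-08), and 16.5% of all genes tested had a larger one. With scaling by library totals, the log2 fold change of Ptafr was smaller, at 0.23 (adjusted p = 0.00012). Ptger4, one of the prostaglandin E2 receptors, had 0, 3 and 2 reads in Veh, 0, 5 and 0 in LPS and 0, 3 and 1 in T0+LPS on its 63 unshared bases. No difference in Ptger4 was detectable on so few reads.

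**Figure D2:**
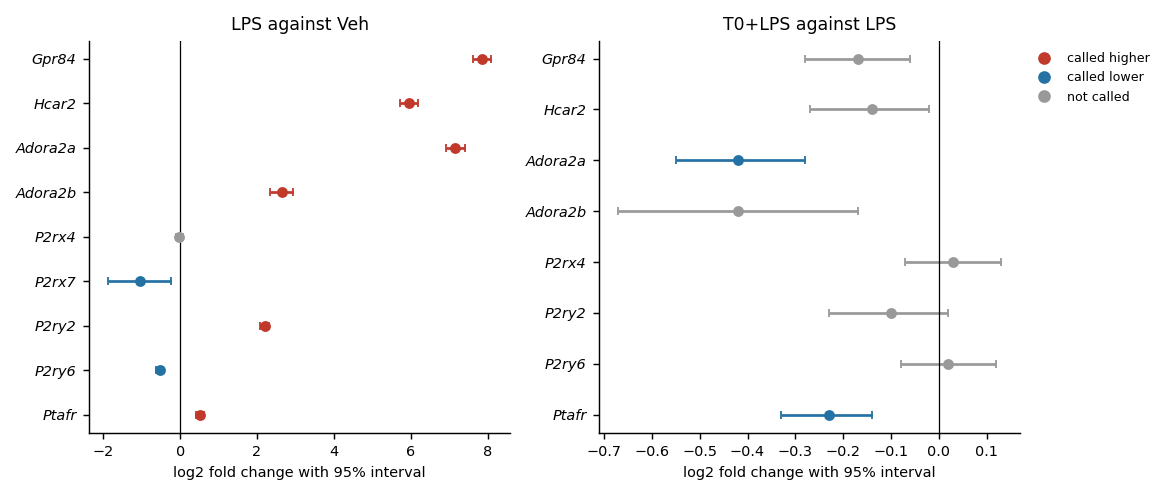
log2 fold changes (x axes, with 95% intervals from edgeR's quasi-likelihood fit) of the receptors tested in LPS against Veh (left) and in T0+LPS against LPS (right), coloured by call. The changes with LPS run from -1.05 (P2rx7) to 7.86 (Gpr84) and those with T0 from -0.42 to 0.03, on x axes of different scale. P2rx7 passed the filter on low counts only through Veh and Gpr84 only through LPS. Without them the changes with LPS run from -0.53 (P2ry6) to 7.16 (Adora2a).

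Adding T0 before LPS moved the same receptors much less. Of the 8 receptors tested, Adora2a and Ptafr fell, and the other 6 were not called. Over all 9348 genes tested, 1.35% were called higher and 1.83% lower. No receptor was called higher by edgeR, DESeq2 or limma-voom. At an unadjusted p under 0.05, 0 were higher and 5 lower. The share of all genes at that threshold is not given here, so no lean of the set is read from this count. For 5 receptors (Gpr84, Hcar2, Adora2a, Adora2b and Ptafr) every T0+LPS library lay below every LPS library and for 3 the groups overlapped, against 9.62% of all genes with T0+LPS entirely below and 9.51% with it entirely above. The median log2 fold change was -0.16 over the 8 receptors and 0.003 over all genes. Both comparisons use the same LPS libraries, so a library that reads high or low there moves both values in opposite directions.

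Adora2a fell by 25.0% with T0 (log2 fold change -0.42, SE 0.06, adjusted p = 0.0016), from 90.9 ± 6.19 to 68.1 ± 4.77 CPM (SD, n = 3). The call held under all 15 alternatives run for this comparison, with an adjusted p of at most 0.014. In T0+LPS, Adora2a still lay far above its Veh level of 0.633 ± 0.0964 CPM. Adora2b had a fold change of the same size, -0.42 (SE 0.12, 95% interval -0.67 to -0.17), on fewer reads, and was not called (adjusted p = 0.067). It was called with no filter on low counts (adjusted p = 0.0038), with the replicate number as a block (0.030), without LPS replicate 2 (0.040) and without T0+LPS replicate 2 (0.038), and over all alternatives the adjusted p ran up to 0.25. The ratio of Adora2a to Adora2b per base was 3.85, 3.10 and 3.85 in T0+LPS, within the range of the LPS libraries (exact permutation p = 0.7, adjusted 0.8), so the turnover of the pair seen with LPS was also present with T0.

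Ptafr fell by 15.0% with T0 (log2 fold change -0.23, SE 0.04, adjusted p = 0.0066), from 760 to 646 CPM. The call was lost without LPS replicate 1 (adjusted p = 0.077) and without T0+LPS replicate 2 (0.052), and the fold change stayed between -0.26 and -0.20. Set against P2rx4 in the same library, Ptafr stood at 1.51, 1.36 and 1.56 times the P2rx4 level per base in LPS and at 1.22, 1.23 and 1.23 times in T0+LPS. The groups did not overlap on this ratio, which does not depend on library scaling (exact permutation p = 0.1, adjusted 0.16). In Veh it was 1.05, 1.02 and 0.987, lower than in either stimulated group.

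The metabolite sensors showed a small difference in the same direction that was not called. Gpr84 was 11.2% lower with T0 by the fit, at a log2 fold change of -0.17 (95% interval -0.28 to -0.06, adjusted p = 0.10), and Hcar2 was at -0.14 (95% interval -0.27 to -0.02, adjusted p = 0.24). For both, the LPS and T0+LPS libraries did not overlap. Per base, Gpr84 stood at 1.68 ± 0.0838 times Hcar2 in LPS and 1.65 ± 0.138 times in T0+LPS, with overlap (exact permutation p = 0.8, adjusted 0.8), and at 0.5 ± 0.267 in Veh, where Hcar2 was the higher in every library.

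For the nucleotide receptors, the intervals with T0 spanned 0. P2ry2 was at -0.10 (95% interval -0.23 to 0.02, adjusted p = 0.47), P2ry6 at 0.02 (-0.08 to 0.12, adjusted p = 0.91) and P2rx4 at 0.03 (-0.07 to 0.13, adjusted p = 0.84). These intervals bound a change of P2ry6 to between 0.948-fold and 1.08-fold. The ratio of P2ry2 to P2ry6 was 0.43, 0.43 and 0.409 in LPS and 0.35, 0.412 and 0.402 in T0+LPS, with overlap (exact permutation p = 0.2, adjusted 0.267). P2rx7 did not pass the filter in this comparison, with 15 reads in each group.

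**Figure D3:**
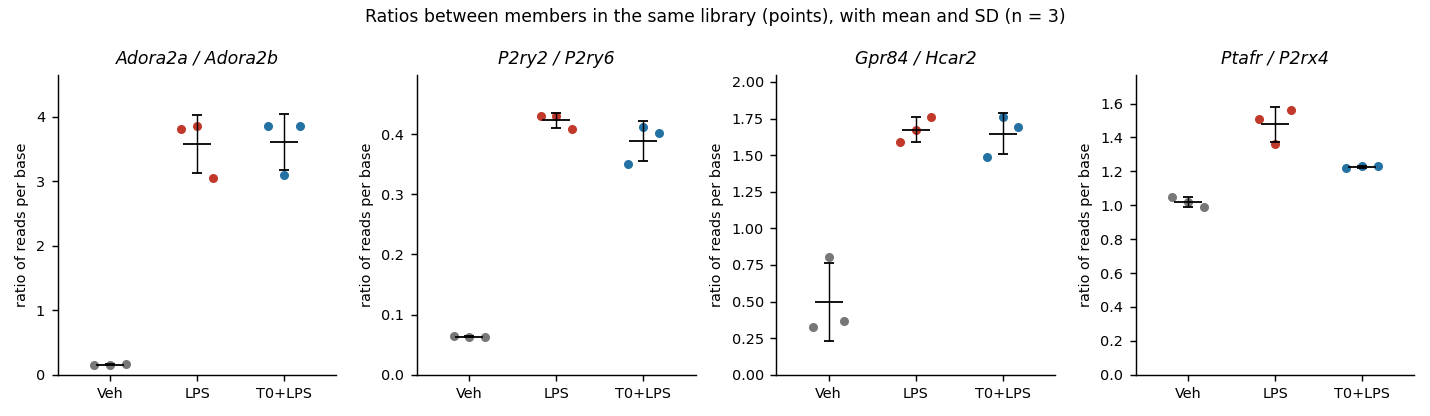
Ratios of reads per base of transcript between 2 receptors in the same library (points, y axes from 0), with the mean and SD of 3 libraries in Veh, LPS and T0+LPS. Adora2a to Adora2b goes from 0.154 in Veh to 3.57 in LPS and 3.60 in T0+LPS, and Ptafr to P2rx4 goes from 1.02 to 1.48 and 1.23.

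Compared per length (CPM per kb of transcript), the 8 receptors with 1 row changed their order with LPS. In Veh, Ptafr (293) and P2rx4 (287) were the most abundant and overlapped each other, followed by P2ry6 (155), P2ry2 (9.83), Adora2b (1.59) and Hcar2 (0.676), each apart from its neighbours, and by Gpr84 (0.309) and Adora2a (0.243), which overlapped. In LPS the order was Ptafr (418), P2rx4 (283), P2ry6 (107), Gpr84 (71.3), P2ry2 (45.2), Hcar2 (42.6), Adora2a (34.9) and Adora2b (9.86), and no 2 neighbours overlapped. Gpr84 thus moved from the seventh place to the fourth and Adora2b from the fifth to the last. In T0+LPS the order was the same as in LPS, with P2ry2 (42.0) and Hcar2 (38.5) now overlapping.

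**Figure D4:**
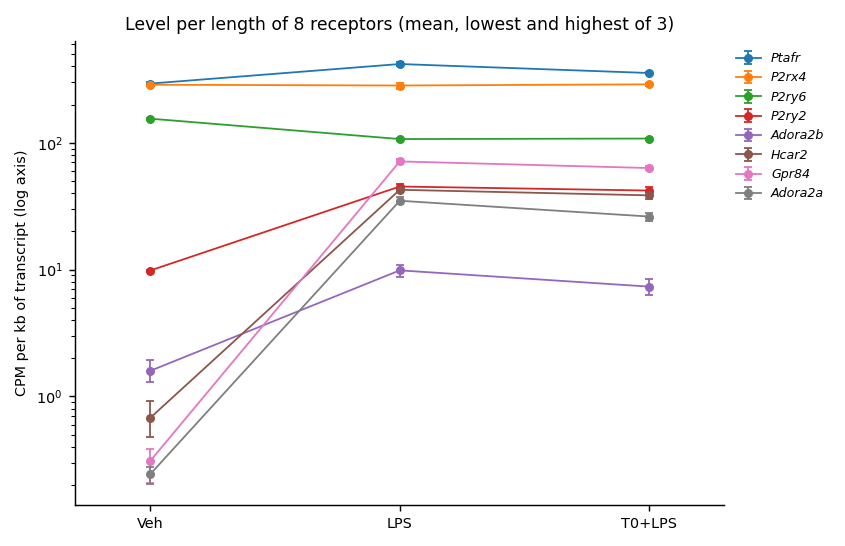
Level per length of the 8 receptors with 1 RefSeq row, in CPM per kb of transcript on a log axis, as the mean (point) with the lowest and highest of 3 libraries (bars) in each group. Gpr84, Hcar2 and Adora2a lie below 1 in Veh and between 24.3 and 74.0 in the stimulated groups.

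The genes whose profile over the 9 libraries was most like each receptor's were found among 7299 symbols with a mean of at least 5 CPM, by the root mean square (RMS) difference of centred log2 CPM. For Gpr84 they were Rnd1 (0.22) and Olr1 (0.24), for Hcar2 Cdc42ep2 (0.11) and Bcl2a1d (0.17) and for Adora2a Icam1 (0.17) and Ccl22 (0.22). Those nearest to Adora2b were Ptges (0.15), which encodes a prostaglandin E synthase, and E2f8 (0.16). The genes closest to P2ry2 were Plagl2 (0.06) and Dyrk2 (0.07), those closest to P2ry6 Fem1c (0.03) and Soat1 (0.03), those closest to Ptafr Stac2 (0.05) and Rps6ka2 (0.05) and those closest to P2rx4 Rpl10 (0.02) and Chmp1a (0.02). The 9 points of each profile fall into 3 groups and share their libraries, so the likeness mainly restates the group means. Icam1, for example, went from 35.9 CPM in Veh to 3730 in LPS and 2940 in T0+LPS, and Ccl22 from 0.201 to 39.8 and 27.8.

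The remaining genes of these pathways were taken from lists. Over all genes tested, 32.9% were called higher and 31.2% lower with LPS, and 1.35% and 1.83% with T0. These shares are the background for the counts of called genes in every list below. The share of all genes at an unadjusted p under 0.05 is not given here. Nothing is therefore read from the list counts at that threshold. Of 13 other P2 and adenosine receptors, 4 passed the filter in LPS against Veh. The ADP receptor P2ry13 rose (1.03 to 2.76 CPM, log2 fold change 1.40, adjusted p = 4.7e-05). The ADP receptor P2ry1, with 2 rows and 275 unshared bases, was called lower (0.975 to 0.254 CPM, log2 fold change -1.91, adjusted p = 0.00039), but it passed the filter only through Veh and is no support for a fall of the list. With scaling by library totals 1 receptor of the list was called higher and 2 lower. With T0, 3 of these receptors were tested and none was called by edgeR, DESeq2 or limma-voom, with 1 higher at an unadjusted p under 0.05. The median over the list was 0.10 with LPS, or 0.5 over the 3 genes left without P2ry1, and 0.16 with T0.

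Of 30 genes for nucleotide release and adenosine handling, 17 were tested, and 6 rose and 4 fell with LPS (5 and 7 with scaling by library totals). Gja1 and Cd38 passed the filter only through LPS, and of the other 15 genes 4 rose and 4 fell. Connexin 43 (Gja1), a channel that can release ATP, went from 3 reads in the Veh libraries together to 303 in the LPS libraries, a ratio of 131 (95% counting interval 44.5 to 640). Cd38, an ectoenzyme that consumes NAD, rose from 0.113 ± 0.0877 to 13.4 ± 0.226 CPM (SD, n = 3) with LPS. Slc29a3, an equilibrative nucleoside transporter, fell by 1.16 on the log2 scale (227 to 101 CPM), and Entpd6, a nucleoside diphosphatase, fell by 0.94. Entpd1, which encodes CD39, fell as well, from 313 to 237 CPM (log2 fold change -0.40, adjusted p = 1.4e-06), and is named here after its values were seen. With T0, Cd38 alone of the 17 was called. It was at 13.5, 13.1 and 13.5 CPM in LPS and 18.5, 20.9 and 19.6 CPM in T0+LPS (log2 fold change 0.56, SE 0.09, adjusted p = 0.0022), and the groups did not overlap.

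Among 20 other metabolite-sensing receptors, 6 were tested, and 3 rose and 2 fell with LPS. Gpr132, a receptor linked to lysophospholipids and oxidized fatty acids, rose from 42.2 to 390 CPM (log2 fold change 3.21, adjusted p = 5.7e-17), and Gpr18 rose from 1.32 to 10.2 CPM (2.96, adjusted p = 5.2e-10). The cannabinoid receptor Cnr2 fell from 72.4 to 6.12 CPM (-3.56, adjusted p = 9.9e-16), and the oxysterol receptor Gpr183 fell from 4.82 to 2.28 CPM (-1.07, adjusted p = 0.00016). With T0, the proton-sensing receptor Gpr65 was the 1 gene called. It was at 82.0, 82.4 and 79.5 CPM in LPS and 129, 113 and 111 CPM in T0+LPS (log2 fold change 0.53, SE 0.06, adjusted p = 9.1e-05), and the Veh libraries stood at 82.6 ± 2.01 CPM (SD, n = 3).

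The other prostanoid and lipid mediator receptors had medians of the opposite sign to the 10 receptors in both comparisons. Of 24 listed, 8 were tested with LPS, of which 2 rose and 5 fell (1 and 5 with library totals), with a list median of -0.92. The lysophosphatidic acid receptors Lpar6 (123 to 7.05 CPM, -4.13, adjusted p = 1.5e-17) and Lpar2 (-1.47, adjusted p = 6.7e-05) fell, and the prostacyclin receptor Ptgir rose (17.0 to 34.7 CPM, 1.04, adjusted p = 1.7e-08). The prostaglandin E2 receptor Ptger2 was called higher with LPS at 0.23 (adjusted p = 0.044), with overlapping groups, and the call was lost in 8 of the 15 alternatives. With T0, 4 of 7 tested were called higher by edgeR and limma-voom and 3 by DESeq2, none of them called a gene lower, 1 gene was lower at an unadjusted p under 0.05, and the list median was 0.32. Ptger2 was at 17.8, 16.4 and 19.1 CPM in LPS and 28.2, 31.6 and 26.5 CPM in T0+LPS (log2 fold change 0.70, SE 0.09, adjusted p = 0.00039). It held its call in every alternative. Lpar6 was at 0.56 (adjusted p = 0.029), a call lost in 6 alternatives. The others were the prostaglandin E2 receptor Ptger1 (0.32, adjusted p = 0.011) and the sphingosine 1-phosphate receptor S1pr1 (0.45, adjusted p = 0.0064), both named after their values were seen. Without LPS replicate 1, Ptger2 was the 1 receptor of the list still called. Ptger1, S1pr1 and Lpar6 were at log2 fold changes of -0.46, -1.40 and -4.13 with LPS, all called, in a comparison that shares the LPS libraries.

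Of 8 genes of platelet-activating factor metabolism, 7 were tested and 6 rose with LPS, as Ptafr did (5 rose and 2 fell with library totals). Lpcat2, which acetylates the precursor of platelet-activating factor, rose from 41.8 ± 0.882 to 82.3 ± 5.99 CPM (SD, n = 3; log2 fold change 0.98, adjusted p = 3.3e-10), and Pafah1b1, a subunit of an acetylhydrolase that inactivates it, rose from 15.2 to 25.3 CPM (0.74). The median of the list was 0.59 with LPS and -0.02 with T0, where no gene was called by edgeR, DESeq2 or limma-voom and 1 was lower at an unadjusted p under 0.05. The list holds enzymes of synthesis and of breakdown.

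Of 34 genes of cAMP signalling, the pathway to which Adora2a, Adora2b and Ptger4 couple, 22 were tested. With LPS, 6 rose and 5 fell (5 and 3 by DESeq2, 3 and 14 with scaling by library totals). Apart from Pde4b, 5 of 21 rose and 5 fell, where 32.9% of all genes tested were called higher and 31.2% lower. The phosphodiesterase Pde4b, measured on 1663 unshared bases of 5 rows and passing the filter only through LPS, rose from 0.314 to 12.2 CPM (log2 fold change 5.25, adjusted p = 2.1e-12), and the CREB coactivator Crtc2 rose from 66.2 to 177 CPM (1.42). Its relative Crtc1 fell (-0.89, adjusted p = 3.7e-08), as did the phosphodiesterase Pde4a (-0.75, adjusted p = 0.0038). With T0, 2 were called lower, the protein kinase A regulatory subunit Prkar2b (-0.36, adjusted p = 0.015) and the phosphodiesterase Pde3b (-0.34, adjusted p = 0.039). Both calls were lost without LPS replicate 1 and without T0+LPS replicate 2, and that of Pde3b also without LPS replicate 3 and without T0+LPS replicate 1.

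**Figure D5:**
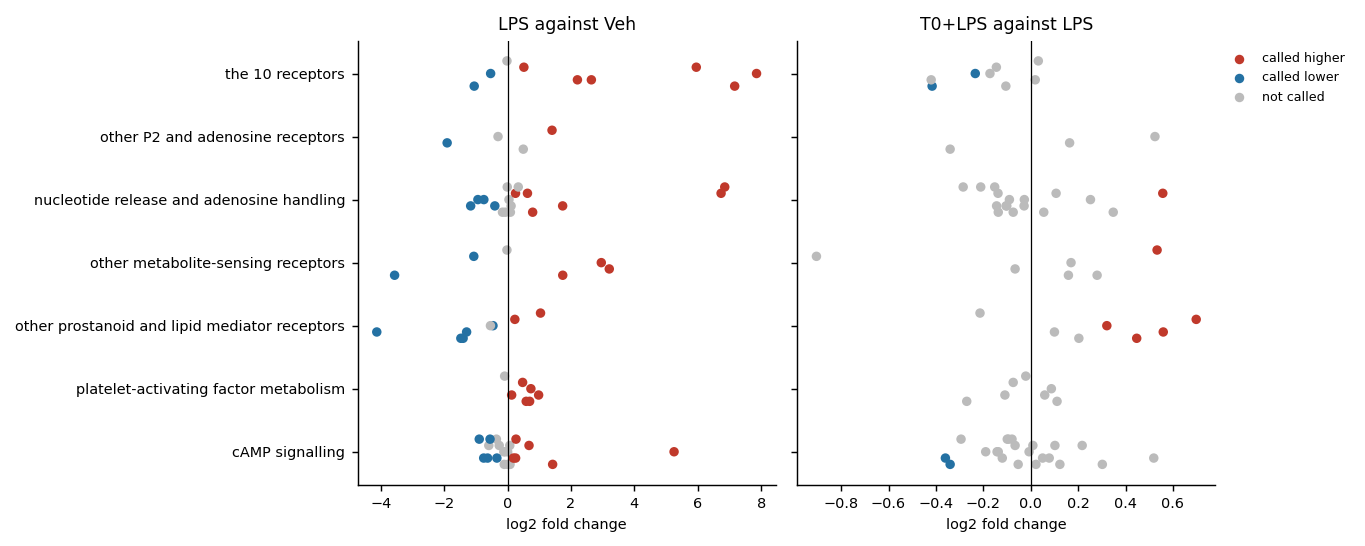
log2 fold changes (x axes, of different scale) of the 10 receptors and of 6 further lists, 1 point per gene tested, in LPS against Veh (left) and T0+LPS against LPS (right), coloured by call; the vertical spread within a list only separates points. With T0, 2 of the 8 tested among the 10 receptors are called lower. Of the other prostanoid and lipid mediator receptors, 4 of 7 tested are called higher. Over all genes tested, 1.35% are called higher and 1.83% lower. Without LPS replicate 1, the calls of Ptafr, Ptger1, S1pr1 and Lpar6 are lost.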

How the data were processed

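RNA from 9 BMDM cultures was measured by polyA RNA-seq. Per the labels and methods, the authors used cutadapt for trimming, HISAT2 for alignment (mm10 transcriptome) and featureCounts for counting on RefSeq transcripts. The deposited table holds raw counts per transcript. The authors' deposited fold values and DESeq2 p-values for their own comparisons were not used.

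Counts of rows with one symbol were summed. For each pair of groups (6 libraries), the quasi-likelihood test of edgeR 4.0.16 (R 4.3.3) was run with TMM factors, filterByExpr (minimum count 10) and Benjamini-Hochberg adjustment; SEs come from its F statistic. The code was tested on simulated data. Ratios used exact 2-sided permutation tests (scipy 1.17.1). Intervals of counts cover counting error only. Replicates of a group differed by more than sampling noise (chi-square per degree of freedom 2.75 to 7.18) and were kept as 9 samples. Alternatives were DESeq2 1.42.0 and its size factors, limma-voom (limma 3.58.1), library totals, other filters, all 9 libraries in one fit, rows not summed, a replicate block and leaving out each library.

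The receptors and gene lists were chosen with earlier results of these data known. Named were all 10 receptors, up to 2 genes in each direction with the largest called changes from each other list and comparison, 5 check genes (Abca1, Abcg1, Ptgs2, Il1b and Cxcl1), the 2 genes nearest to each receptor that passed the filter in both comparisons (log2 CPM with a prior count of 1), and, of each marker list, its sum. Sequences are from RefSeq, GRCm38.p6.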

Additional observations from a re-analysis of the deposited data

How the results depend on the processing

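In 254 refits of the 17 receptor values, 241 kept their direction and side of the threshold, 5 lost a call, 5 gained one and 3 turned the sign of a value that was not called. Those 3 came from leaving out 1 library: P2rx4 with LPS ranged from -0.06 to 0.01 and with T0 from -0.0065 to 0.06, and P2ry6 with T0 from -0.0015 to 0.03. With LPS, 1 receptor in place of 2 was called lower under DESeq2 and with rows not summed (P2rx7 dropped out in both, as it did without Veh replicate 1 and without LPS replicate 3, for a range of 1 to 2). Without LPS replicate 1, T0 lowered 1 receptor and without LPS replicate 2 it lowered 3 (range 1 to 3). The numbers of all genes called with T0 ranged from 59 to 167 higher and from 82 to 191 lower with 1 library left out, lowest without LPS replicate 1, and were 225 and 285 with no filter on low counts. Library totals gave 1694 genes higher and 5411 lower with LPS, 76.2% of the calls lower against 48.6% with TMM, and P2rx4 was then called lower. Of 360 list counts, 339 stayed within 1.5 times, and the cAMP signalling list turned from 6 higher and 5 lower to 3 and 14 with library totals. Deviations of replicates with the same number in the labels were nearly uncorrelated between groups (correlations between -0.01 and 0.04). This does not decide whether the cultures were paired, and the main fit used no pairing. The fit with the replicate block called 3 receptors lower with T0, adding Adora2b (adjusted p = 0.030), and 155 genes higher and 230 lower. P2rx7 and Ptger4 were counted on only 578 and 63 unshared bases, with 71 and 14 reads in all. So few reads limit what can be said of both.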
